A study of Mus musculus with 15 samples.

Results

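Spock3, Nceh1, Sidt1, Galt, Myrip, Lgi3 and Pdgfb are 7 genes whose transcripts were higher in the inner than in the outer CA3 layer of newborn mice lacking doublecortin (Dcx KO). They were picked on that difference, so their inner and outer levels are given here as a description, with no test. The rule took every array entry carrying one of the 7 symbols and set no threshold of size. It found 9 probes among 25697, and 8 of them passed the detection filter, which left 8442 genes measured in all. Tissue was cut by laser microdissection from the CA3 field of the hippocampus at P0, the day of birth, and read on Illumina bead arrays. The groups were 5 inner KO layers, 5 outer KO layers and 5 CA3 layers of wild-type (WT) mice. The 5 KO animals gave 1 inner and 1 outer sample each, so the 15 arrays hold 10 animals, and each sample pooled the dissected pieces of 1 brain. The labels give the KO animals as mutant and the series as doublecortin knockout, and they name no allele, strain, sex or litter for any group.

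CA3 is the hippocampal field whose pyramidal neurons take input from dentate granule cells through mossy fibres, and doublecortin binds microtubules in young neurons on their way to their layer. In mice without it the CA3 pyramidal layer is split into an inner and an outer band. The 7 genes belong to no single pathway. Spock3, Lgi3 and Pdgfb encode secreted proteins: a calcium-binding proteoglycan of the SPARC family (testican 3), a leucine-rich repeat protein of the family that binds ADAM22-type receptors at synapses and axons, and the B chain of platelet-derived growth factor, which endothelial cells and neurons release. Nceh1 is a membrane-bound hydrolase of neutral lipids, including cholesterol esters, and Sidt1 is a membrane protein related to the double-stranded RNA channel SID-1 of Caenorhabditis elegans. Galt converts galactose 1-phosphate in the galactose pathway, and Myrip links Rab27 on secretory organelles to myosin motors.

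Upstream windows of 250 bases, ending at the base before an annotated transcript start, were taken from RefSeq (GRCm38.p6) for 5 of the genes, Spock3, Nceh1, Sidt1, Galt and Myrip, which had 7 windows in all. They were read for the E-box CANNTG, the motif bound by basic helix-loop-helix factors, which reads alike on both strands. The 3 windows shown are the 2 that hold the E-box CACGTG (Nceh1 and the first of 2 Galt entries) and the second Spock3 entry, which shares CAGCTG with Nceh1. Each is written 5′ to 3′ along the gene's strand, with every CANNTG in capitals.
Nceh1, chr3:27182754-27183003, plus strand: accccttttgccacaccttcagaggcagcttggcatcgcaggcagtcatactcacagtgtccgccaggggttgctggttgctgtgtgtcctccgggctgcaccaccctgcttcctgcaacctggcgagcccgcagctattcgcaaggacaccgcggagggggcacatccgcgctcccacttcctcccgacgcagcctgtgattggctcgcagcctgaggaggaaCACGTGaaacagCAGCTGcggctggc
Galt, chr4:41755267-41755516, plus strand: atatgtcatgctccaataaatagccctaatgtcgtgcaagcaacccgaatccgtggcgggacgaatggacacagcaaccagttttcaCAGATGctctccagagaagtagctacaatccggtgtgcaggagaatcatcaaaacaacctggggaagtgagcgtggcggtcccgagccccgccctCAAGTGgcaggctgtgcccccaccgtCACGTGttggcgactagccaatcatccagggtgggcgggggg
Spock3, chr8:62951095-62951344, plus strand: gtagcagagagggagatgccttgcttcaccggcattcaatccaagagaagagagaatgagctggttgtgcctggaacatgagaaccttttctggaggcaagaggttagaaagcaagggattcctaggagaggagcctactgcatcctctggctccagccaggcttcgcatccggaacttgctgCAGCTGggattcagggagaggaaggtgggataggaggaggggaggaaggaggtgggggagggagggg
A CANNTG was found in 6 of the 7 windows, against 66.2% of 32536 upstream windows of the same length. The window without one was the first Spock3 entry. The 7 windows are not independent, since Galt and Spock3 gave 2 each and those of Spock3 overlap. CACGTG, a special case of CANNTG, was found in 2 of the 7, against 6.04% of all windows, and CAGCTG in 2 of the 7, against 13.1%. On either strand, CCAAT was present in 4 of the 7 windows (33.8% of all), TGACG in 2 (17.9%) and GGGCGG in 2 (33.0%). GC content of the windows ran from 46.4 to 82.4%, with a median of 52.4% over all windows. A match describes the letters of the window and is not a binding site.

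Levels are log2 signals after background correction and quantile normalization. An offset of 16 was added before the log, so a difference understates the change of a dim probe. Detected probes ranged from 10718 to 12072 per array, and the correlation of any 2 arrays across genes from 0.936 to 0.993. Of the 3 Dcx probes, the 2 detected ones lay lower on all 10 KO arrays than on any WT array. Their levels were 10.36 to 10.74 in KO against 11.76 to 12.07 in WT, and 9.87 to 10.47 in KO against 11.03 to 11.31 in WT. Pyramidal neuron markers averaged 8.80 to 8.97 on inner arrays, 8.35 to 8.63 on outer arrays and 8.45 to 8.68 on WT arrays. Of the 9 measured, limma called 4 higher in the inner than in the outer layer and 2 lower (adjusted p under 0.05). Over all genes 11.4% were called higher and 9.57% lower. The markers of the CA3 field averaged 9.50 to 9.64, 9.37 to 9.71 and 9.27 to 9.60 on inner, outer and WT arrays. Skeletal muscle markers stood at 7.89 to 9.54 on inner arrays 1, 2 and 5 and at 9.57 to 11.38 on WT arrays 1, 2 and 3, against at most 5.77 on every other array. Bone and cartilage markers reached 8.06 to 10.40 on those inner arrays, 9.09 and 9.60 on WT arrays 3 and 1, and 6.85 on outer array 1, and were lower elsewhere. The authors' own scores carry a shift on the 8 arrays of KO animals 1 to 4 and none on the 7 arrays of KO animal 5 and the WT mice. The labels name no batch, and these sets are called shifted and unshifted arrays below.

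Among the secreted proteins, Spock3 stood at 8.94, 8.82, 8.98, 8.62 and 8.12 in the inner layers of KO animals 1 to 5. In the outer layers of the same animals it stood at 6.81, 6.85, 6.98, 7.03 and 6.42, and in WT at 6.68, 6.61, 6.99, 7.28 and 7.38. All inner arrays lay above all outer and WT arrays, and outer and WT arrays overlapped. The means were 8.70 ± 0.35 in the inner layer, 6.82 ± 0.24 in the outer layer and 6.99 ± 0.34 in WT (SD, n = 5 each). The inner layer exceeded the outer by 1.88 ± 0.10 (SE), a 3.68-fold difference that ranked 25th of 8442 genes. Within the animals it ranged from 1.58 to 2.14. In these bulk samples more cells of a type and more RNA per cell cannot be told apart, here and for every gene below.

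Lgi3 had levels of 7.99, 7.71, 7.64, 7.54 and 7.85 in the inner layers of animals 1 to 5. The outer layers had 6.18, 5.72, 6.25, 5.82 and 6.60, and the WT layers 6.94, 6.73, 6.47, 6.52 and 6.85. The inner arrays again lay above both other groups, while 1 outer array, that of animal 5, reached into the range of WT. Group means were 7.75 ± 0.18 in the inner layer, 6.11 ± 0.35 in the outer layer and 6.70 ± 0.20 in WT (SD, n = 5 each). The inner layer was higher by 1.63 ± 0.12 (SE), or 3.10-fold, with 1.25 to 1.98 within the animals. This was the second largest of the 7 differences under this normalization. With quantile normalization and no background correction it was 0.98, below those of Spock3, Pdgfb, Nceh1 and Sidt1.

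Pdgfb stood at 9.75, 9.85, 9.52, 9.62 and 9.72 in the inner layers, the tightest inner group of the 7 genes. It stood at 8.18, 8.37, 8.44, 8.13 and 8.43 in the outer layers and at 9.14, 8.78, 8.77, 8.83 and 9.03 in WT. The 3 groups did not overlap: every inner array lay above every WT array, and every WT array above every outer array. Means were 9.69 ± 0.13 in the inner layer, 8.31 ± 0.15 in the outer layer and 8.91 ± 0.17 in WT (SD, n = 5 each). The inner layer was higher by 1.38 ± 0.09 (SE), 2.60-fold, and by 1.08 to 1.57 within the animals. A second Pdgfb probe was detected on 0 of the 15 arrays and gave no usable level.

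Of the 2 membrane proteins, Nceh1, which the array's own annotation lists under its older name Aadacl1, had 9.65, 9.68, 9.90, 9.35 and 9.98 in the inner layers. The outer layers had 8.25, 8.51, 8.54, 8.04 and 8.70, and the WT layers 8.72, 8.55, 8.45, 8.63 and 8.89. The inner arrays lay above both other groups, and the outer and WT arrays overlapped. Means were 9.71 ± 0.25, 8.41 ± 0.26 and 8.65 ± 0.17 in the inner layer, the outer layer and WT (SD, n = 5 each). Within the animals the inner layer was higher by 1.17 to 1.40, with a mean of 1.30 ± 0.07 (SE) or 2.47-fold.

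Sidt1 had 9.07, 8.92, 8.57, 8.64 and 8.77 in the inner layers. It had 7.55, 7.37, 7.04, 7.36 and 7.60 in the outer layers and 8.49, 8.18, 7.63, 8.03 and 7.84 in WT. The groups did not overlap, although WT array 3 exceeded the highest outer array only narrowly, by less than the SD of either group. Means were 8.79 ± 0.20 in the inner layer, 7.38 ± 0.22 in the outer layer and 8.03 ± 0.33 in WT (SD, n = 5 each). The inner layer was higher by 1.41 ± 0.09 (SE), 2.66-fold, and by 1.16 to 1.55 within the animals.

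Galt, the enzyme, was read by 2 detected probes. The brighter had 8.81, 8.71, 8.50, 8.33 and 8.84 in the inner layers, 7.75, 7.73, 7.34, 7.18 and 7.69 in the outer layers, and 8.13, 7.78, 8.12, 8.28 and 8.14 in WT. Its 3 groups did not overlap, but inner array 4 lay close above the highest WT array and WT array 2 close above the highest outer array. Means of this probe were 8.64 ± 0.22 in the inner layer, 7.54 ± 0.26 in the outer layer and 8.09 ± 0.19 in WT (SD, n = 5 each). Its difference of 1.10 ± 0.07 (SE), 2.14-fold, was the smallest of the 7 genes and ranked 125th of 8442. The dimmer probe gave 1.14 ± 0.18 (SE), with a wider range of 0.62 to 1.77 within the animals against 0.98 to 1.16 for the brighter. On the dimmer probe the inner and WT arrays overlapped, while the outer arrays again lay below all WT arrays.

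Myrip, the Rab27 effector, had 7.81, 8.04, 7.68, 7.97 and 7.95 in the inner layers. In the outer layers it had 6.27, 6.73, 6.42, 6.56 and 6.88, and in WT 7.05, 6.82, 7.12, 7.09 and 7.46. Inner arrays lay above the other groups, and the outer array of animal 5 overlapped the lowest WT array. Means were 7.89 ± 0.14 in the inner layer, 6.57 ± 0.24 in the outer layer and 7.11 ± 0.23 in WT (SD, n = 5 each). The inner layer was higher by 1.32 ± 0.09 (SE), 2.50-fold, and by 1.08 to 1.54 within the animals.

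**Figure D1:**
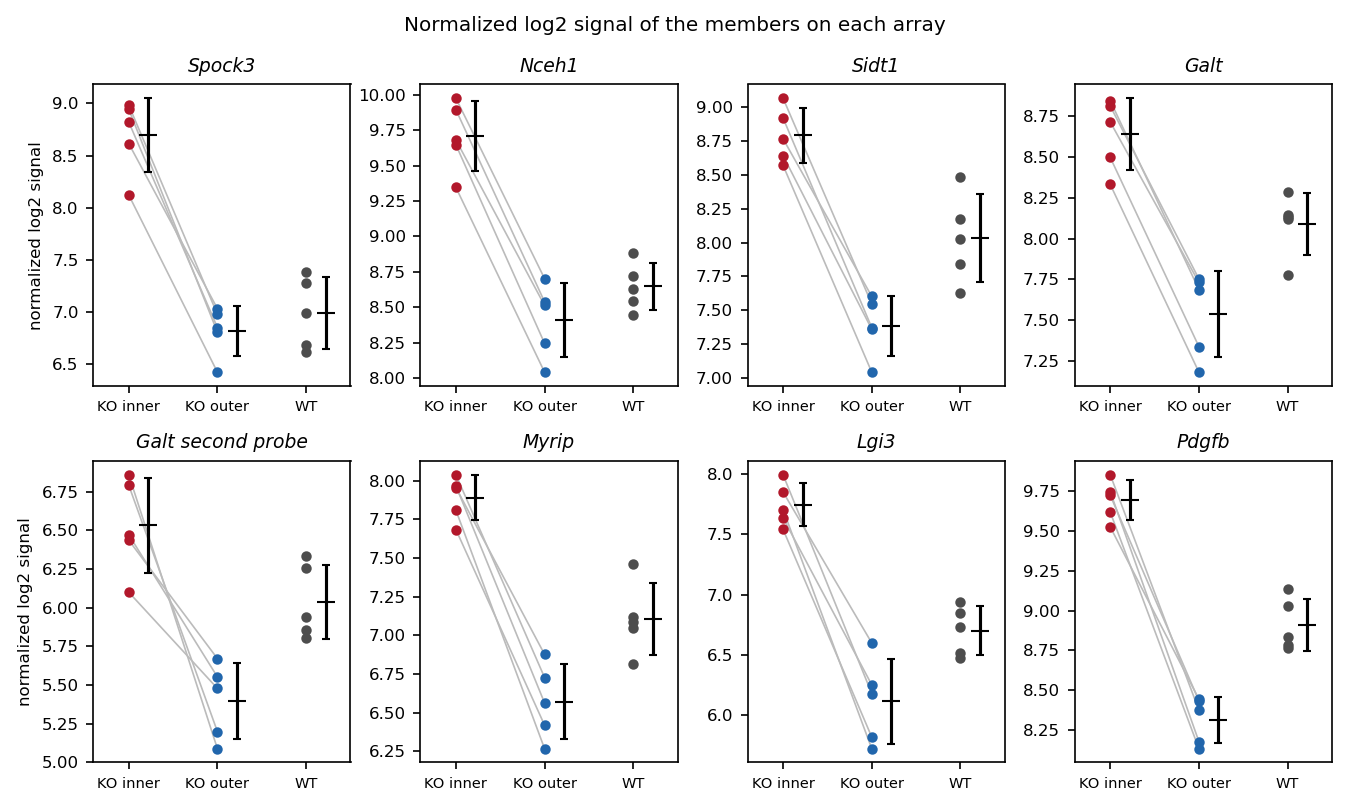
Normalized log2 signal (vertical axes) of the 8 detected probes on every array, in the inner KO layer, the outer KO layer and WT, with 1 point per array, grey lines joining both layers of an animal, and black bars for mean and SD. On each probe the inner points lie above all outer points, and for Spock3 and Nceh1 the outer and WT points lie at like heights.

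In each of the 7 genes the inner and outer arrays did not overlap, as held, with the inner layer higher, for 6.04% of all 8442 genes. The inner layer was higher in 5 of 5 animals for each, and for 16.8% of all genes. Because this difference chose the genes, nothing is read from these counts. The median difference of the 7 was 1.38, with −0.03 over all genes measured. KO animals 3 and 4, whose arrays were low in muscle and bone markers, gave mean differences of 1.79 for Spock3, 1.55 for Lgi3, 1.28 for Pdgfb, 1.33 for Nceh1, 1.41 for Sidt1, 1.15 for Galt and 1.33 for Myrip. The dimmer Galt probe gave 0.69 in these 2 animals, against 1.14 over all. These are the values the genes were picked on, and they are given as a description.

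**Figure D2:**
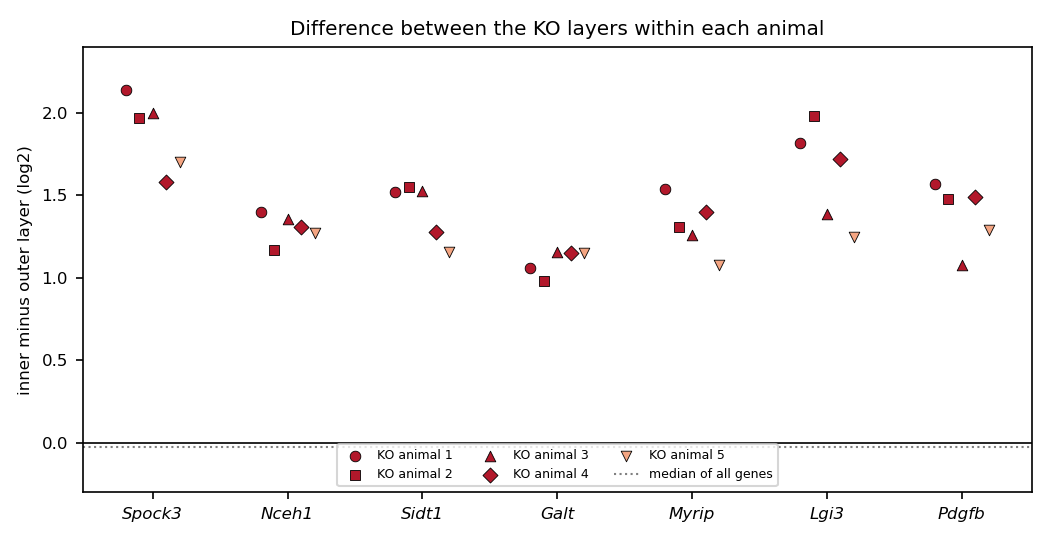
Inner minus outer log2 difference (vertical axis) of each gene in each of the 5 KO animals, with 1 symbol per animal and a dotted line at the median of all genes. All values lie above 0, between 0.98 for Galt and 2.14 for Spock3.

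The WT level, which the choice of the genes did not use directly, was set beside both layers. These differences share the KO arrays on which the genes were chosen, so they too are given with no test. In all 7 genes the inner arrays lay above every WT array, as did those of 6.12% of all genes. The inner layer exceeded WT by 1.71 ± 0.20 for Spock3, 1.06 ± 0.13 for Nceh1, 1.04 ± 0.12 for Lgi3, 0.78 ± 0.12 for Myrip, 0.78 ± 0.10 for Pdgfb, 0.76 ± 0.16 for Sidt1 and 0.55 ± 0.13 for Galt (SE). For Galt the inner and WT arrays overlapped when the deposited signals were only centred on the median of each array. Inner array 5, the inner array of the unshifted set, exceeded the WT mean by 1.13 for Spock3, 1.33 for Nceh1, 1.15 for Lgi3, 0.85 for Myrip, 0.81 for Pdgfb, 0.74 for Sidt1 and 0.75 for Galt. This is 1 array, itself high in muscle and bone markers, and no WT array carries the shift, so the shifted set gives no value. Without the muscle- or bone-high arrays, inner arrays 3 and 4 and WT arrays 4 and 5 were left. Inner minus WT was then 0.20 ± 0.15 (SE) for Galt, against 0.55 with all arrays. For the other genes it was then 1.47 ± 0.17 for Spock3, 0.91 ± 0.17 for Lgi3, 0.86 ± 0.21 for Nceh1, 0.67 ± 0.15 for Sidt1, 0.64 ± 0.15 for Pdgfb and 0.55 ± 0.19 for Myrip (SE).

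The outer layer lay below every WT array for Sidt1, Galt and Pdgfb, 3 of the 7 genes, as it did for 6.56% of all genes. Outer minus WT was −0.65 ± 0.16 for Sidt1, −0.55 ± 0.14 for Galt and −0.60 ± 0.11 for Pdgfb (SE). With median-centred signals the outer layer overlapped WT for all 7 genes, and with the authors' scores it lay below WT without overlap for Sidt1 and Pdgfb alone. Lgi3 and Myrip differed from WT by −0.59 ± 0.17 and −0.54 ± 0.14 (SE), with overlapping arrays. Spock3 and Nceh1 were closest to WT, at −0.17 ± 0.17 and −0.24 ± 0.14 (SE). The sign turned to 0.04 for Spock3 with median-centred signals, and to 0.08 SD units for Nceh1 with the authors' scores. Over the unshifted arrays the outer layer of animal 5 minus WT was −0.57 for Spock3, 0.06 for Nceh1, −0.43 for Sidt1, −0.40 for Galt, −0.23 for Myrip, −0.10 for Lgi3 and −0.48 for Pdgfb. With the authors' scores outer minus WT was −0.24 for Spock3 and −0.26 to −0.10 SD units for Sidt1, Galt, Myrip, Lgi3 and Pdgfb. The order of the genes by the distance of the outer layer from WT therefore changed with the scaling and the array set. With outer arrays 3 and 4 against WT arrays 4 and 5 alone, outer minus WT was −0.95 ± 0.14 for Galt, −0.47 ± 0.19 for Nceh1 and −0.32 ± 0.13 for Spock3 (SE). Each was over 1.5 times the value from all arrays, and the other 4 genes lay at −0.78 to −0.64. This setting also left out outer arrays 2 and 5 with their animals, although those arrays were low in muscle and bone markers. For Spock3, Nceh1, Lgi3 and Myrip, 4 of the 7, the inner layer stood above both other groups while those overlapped, as for 2.1% of all genes. Outer and WT arrays overlapped for 90.8% of all genes, and no difference between these genes was tested.

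**Figure D3:**
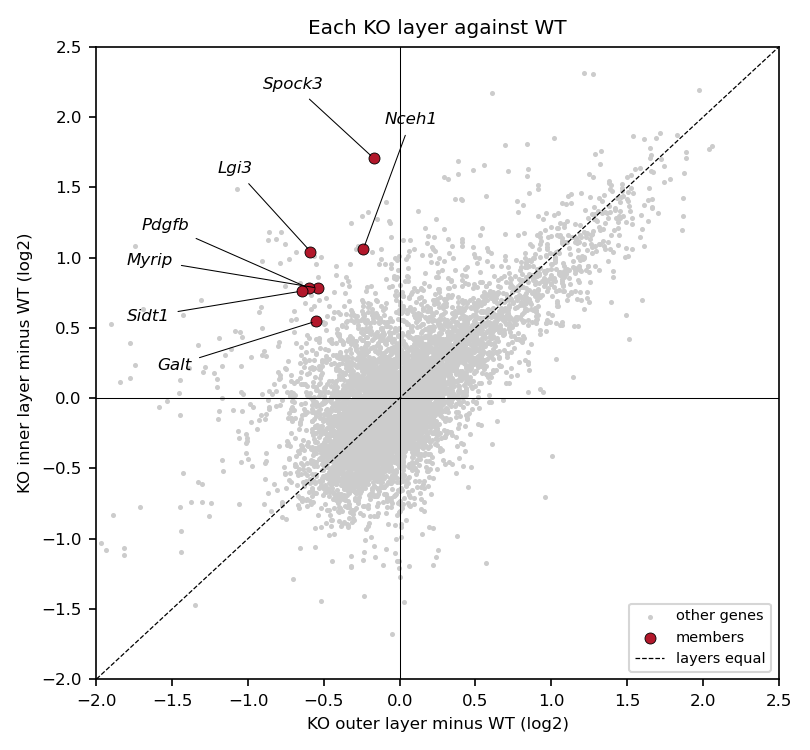
Outer minus WT (horizontal axis) against inner minus WT (vertical axis), both as log2 differences, for the 8442 genes measured, with the 7 genes in red and a dashed line where both layers are equal. The 7 genes lie above the dashed line, between −0.65 and −0.17 on the horizontal axis and between 0.55 and 1.71 on the vertical axis, and 19 genes lie beyond the axes.

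KO animals and WT mice can also be compared by the mean of both layers of each animal. The genes were not picked on this mean, but it holds the inner arrays on which they are high. A rise in the inner layer alone also raises the mean, so the test is not independent of the choice. For Spock3 inner minus WT was 1.71 and outer minus WT −0.17, and for Nceh1 they were 1.06 and −0.24. Spock3 and Nceh1 were higher in KO, 2 of the 7 genes, against 11.3% of all genes called higher in KO and 22.3% called in either direction. Spock3 averaged 7.76 ± 0.28 in KO animals and 6.99 ± 0.34 in WT (SD, n = 5 each), a difference of 0.77 ± 0.18 (SE), 1.70-fold, with an adjusted p of 0.0214 in limma. In 4 of 5 KO animals it exceeded the highest WT array. Nceh1 averaged 9.06 ± 0.25 in KO animals and 8.65 ± 0.17 in WT (SD, n = 5 each), a difference of 0.41 ± 0.13 (SE), 1.33-fold, with an adjusted p of 0.0435 in limma. It, too, exceeded the highest WT array in 4 of 5 animals.

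The Spock3 call held under each other scaling, but was lost, with an adjusted p in limma of 0.0563, 0.0592 and 0.0567, without KO animal 2, 3 or 4, although the difference stayed at 0.71 to 0.75. Without each of those animals the number of genes called among all 8442 dropped to between 13 and 21, against 1879 with all animals. The Spock3 difference was 0.28 in animal 5 alone, the KO animal of the unshifted arrays. A single animal on one side gives no spread of its own, and limma called 0 genes there (283 at an unadjusted p under 0.05). The Nceh1 call was lost, with an adjusted p of 0.0542 to 0.104 in limma, when any single animal other than WT 5 was left out, with differences of 0.34 to 0.50. With KO animals 3 and 4 against WT mice 4 and 5 alone, the Nceh1 difference was 0.20 ± 0.20 (SE), with an adjusted p of 0.509 in limma. In animal 5 against WT it was 0.69. The array set and the genotype cannot be told apart for KO animals 1 to 4, because no WT array carries the shift.

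The KO mean of the other 5 genes did not pass the test against WT. The differences and their 95% intervals were 0.23 (−0.06 to 0.52) for Lgi3, 0.12 (−0.15 to 0.40) for Myrip, 0.09 (−0.12 to 0.30) for Pdgfb, 0.06 (−0.29 to 0.40) for Sidt1 and 0.00 (−0.29 to 0.28) for Galt. Their adjusted p in limma ran from 0.230 for Lgi3 to 0.993 for Galt. The intervals leave room for a change of up to 0.52 in Lgi3 and 0.40 in Sidt1 and Myrip. With the authors' scores Lgi3 passed the test, at an adjusted p of 0.0263 in limma. With KO animals 3 and 4 against WT mice 4 and 5 alone, the Galt difference was −0.38 ± 0.13 (SE), with an adjusted p of 0.0931 in limma. This lay outside the interval over all animals. The median of the 7 genes was 0.12, and that of all genes −0.08.

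The 7 genes moved alike over the 15 arrays, as their choice on a shared difference brings about. Pearson's r over the arrays ran from 0.77 to 0.96 over the 21 pairs, with a median of 0.90. After the group means were taken out, r ran from −0.38 to 0.58, with a median of 0.29. The points share arrays, animals and array sets, so no p is given. Within the groups the genes were thus only weakly alike.

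Of all genes measured, the 3 most like each of the 7 over the 15 arrays were chosen by Pearson's r. For Spock3 they were Npy2r, a neuropeptide Y receptor, at r = 0.962, Robo1, an axon guidance receptor, at 0.959 and Creg2 at 0.942. For Nceh1 they were Lynx1 and Lypd1, which act on nicotinic receptors, at 0.958 and 0.939, and Omg, a myelin-associated glycoprotein, at 0.939. Sidt1 was most like Vsnl1, a neuronal calcium sensor, at 0.968, Reln, which encodes reelin, at 0.966 and Cdh13, a cadherin, at 0.956. Galt was most like Eno2, the neuronal enolase, at 0.961, Dgkz, a diacylglycerol kinase, at 0.956 and Vsnl1 at 0.954. Lgi3 shared Eno2, at 0.972, followed by Pdgfb at 0.960 and the proline transporter Slc6a7 at 0.943. Pdgfb was most like Camk2a, a kinase of excitatory synapses, at 0.978, Slc6a7 at 0.975 and Fxyd7 at 0.972. Myrip was most like Pdgfb at 0.957, Rasgrp1 at 0.954 and Camk2a at 0.952. Eno2, Vsnl1, Slc6a7, Camk2a and Pdgfb each stood among the closest genes of 2 of the 7. Each r includes the difference between the groups on which the 7 genes were chosen, so genes with a like difference rank high. For these closest genes r was not computed within the groups, and no further likeness is read from it.

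For each of the 7 genes a list of related genes was tested, none of which is a member. These 7 lists were chosen with earlier results of these data known, so they are not independent of those results. Together they held 65 measured genes, of which 20 rose in the inner against the outer layer and 3 fell (adjusted p under 0.05 in limma with the animal as block). Here and below, rose and fell compare the inner with the outer layer. They do not say that the inner layer differed from WT. Over all genes 11.4% were called higher in the inner layer and 9.57% lower. The median difference of the 65 genes was 0.16. Without the muscle- or bone-high arrays, which leaves animals 3 and 4, 7 rose (Spock1, Smoc1, Sytl2, Rph3a, Kcna1, Kcna2 and Pdgfra) and 0 fell. With median-centred signals 1 rose and 0 fell.

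The LGI list held the most genes that moved: 7 of 12 measured rose and 0 fell, with a median difference of 0.36. Kcna1 and Kcna2, subunits of axonal voltage-gated potassium channels, rose by 0.99 ± 0.13 and 0.61 ± 0.08 (SE), with adjusted p of 0.00332 and 0.00320 in limma. Kcnab1, an auxiliary subunit of those channels, rose by 0.54 ± 0.07 (SE), with an adjusted p of 0.00295 in limma. The family member Lgi1 rose by 0.47 ± 0.08 (SE), at an adjusted p of 0.00797 in limma. The family is known to sit in complexes with these channels at axons. These 4 calls were kept when any 1 animal was left out. Kcna1 averaged 5.60 ± 0.24 in the inner layer, 4.61 ± 0.21 in the outer layer and 4.80 ± 0.29 in WT (SD, n = 5 each). It was detected on 5 inner, 1 outer and 2 WT arrays, so it passed the filter through the inner layer, and its difference is taken against a level near background. The synaptic scaffold Dlg4 rose by 0.47 ± 0.12 (SE), at an adjusted p of 0.0309 in limma, and was higher in 4 of 5 animals. Its call was lost without animal 1, 2, 3 or 4. The receptor Adam23 also rose, but its call was lost whichever animal was left out, and that of Kcnab2 was lost without animal 4 or 5. Inner minus WT was 0.08 for Adam23 and 0.05 for Kcnab2, and outer minus WT was −0.21 and −0.37. Adam22, a receptor of the family, had a difference of 0.07 ± 0.08 (SE).

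In the list of the SPARC family and its metalloproteinases, 4 of 11 measured genes rose and 1 fell, with a median of 0.17. The other testican Spock1 rose by 1.04 ± 0.12 (SE), at an adjusted p of 0.00157, and Smoc1, a SPARC-related matrix protein, by 1.10 ± 0.13 (SE), at an adjusted p of 0.00184, both in limma. Both calls were kept without any single animal, and both differences were of like size in animals 3 and 4, at 1.03 and 1.16. Spock2, the remaining testican, had a difference of −0.24 ± 0.08 (SE), which did not pass the test. Sparc rose by 1.56 ± 0.34 (SE), at an adjusted p of 0.0190, and Mmp14, a membrane-bound metalloproteinase, by 1.04 ± 0.30 (SE), at an adjusted p of 0.0469. In animals 3 and 4 alone these 2 differences were 0.50 and 0.28, and the Sparc call was lost without animal 1 or 5 and the Mmp14 call without animal 1, 2, 3 or 5. Timp3, an inhibitor of metalloproteinases, fell by 0.41 in the inner layer, a call kept only without animal 2.

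Of the PDGF list, 4 of 11 measured genes rose and 1 fell, with a median of 0.22. The receptor Pdgfra rose by 1.21 ± 0.12 (SE), at an adjusted p of 8.86e-04 in limma, and averaged 7.79 ± 0.40 in the inner layer, 6.58 ± 0.24 in the outer layer and 6.46 ± 0.59 in WT (SD, n = 5 each). Rgs5, a marker of pericytes, rose by 0.78 ± 0.13 (SE), at an adjusted p of 0.00746, and Notch3, a receptor of mural cells, by 0.49 ± 0.13 (SE), at an adjusted p of 0.0392. Pdgfrb, through which the B chain recruits pericytes, rose by 0.37 ± 0.10 (SE), at an adjusted p of 0.0408, but was detected on 5 inner, 3 outer and 1 WT arrays, near background outside the inner layer. Pdgfrb and Notch3 each lost the call without animal 1, 2, 3 or 4, whereas Pdgfra and Rgs5 kept it without any single animal. In animals 3 and 4 alone Pdgfra still rose, by 1.13, while Rgs5 had a difference of 0.48, with an adjusted p of 0.145 in limma. Nrp1, a co-receptor on neurons and vessels, fell by 0.45, at an adjusted p of 0.0128 in limma. Pdgfa, the other chain, had a difference of 0.01 ± 0.08 (SE).

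Pdgfb is also a gene of endothelial cells and platelets, and Pdgfra of the oligodendrocyte lineage, so those markers are given beside them. The counts below stand beside 11.4% of all genes called higher in the inner layer and 9.57% called lower. Endothelial markers averaged 6.45 to 6.87 on inner arrays, at most 6.22 on outer arrays and 6.04 to 6.71 on WT arrays. Of the 12 listed, 9 were measured and 6 rose in the inner layer, while Cdh5 and Kdr were below the filter. The 3 measured platelet markers, of 6 listed, averaged 6.36 to 6.73 on inner arrays, 5.87 to 6.20 on outer arrays and 6.17 to 6.50 on WT arrays. Of these, 2 rose in the inner layer, and Pf4, Ppbp and Gp9 were below the filter. Oligodendrocyte lineage markers averaged 7.10 to 7.27 on inner arrays, 6.46 to 6.80 on outer arrays and 6.39 to 6.82 on WT arrays, and 4 of 6 measured rose. Pdgfra and Cspg4 stand on this list as well as on the PDGF list. Of the 6 measured markers of newborn neurons 5 fell in the inner layer and Gadd45g, of the Gadd45 family, rose by 0.87; their mean was 7.81 to 8.16 on inner arrays, 8.72 to 9.01 on outer arrays and 8.31 to 8.55 on WT arrays. GABAergic interneuron markers averaged 8.49 to 8.86 on inner arrays, 8.14 to 8.36 on outer arrays and 7.60 to 8.07 on WT arrays, and those of astrocytes 8.28 to 9.09, 8.01 to 8.43 and 7.80 to 8.26. Of 5 measured astrocyte markers 3 rose, while Gja1, a gap junction gene, had a difference of −0.88 ± 0.35 (SE), which did not pass the test. Microglia markers averaged 5.47 to 6.45 on inner arrays, 4.82 to 5.31 on outer arrays and 4.71 to 6.31 on WT arrays, and those of red blood cells 7.99 to 10.06, 7.63 to 8.17 and 7.02 to 8.47. In the inner layer 4 of 6 measured GABAergic markers rose, 3 of 5 of microglia and 2 of 4 of red blood cells, and 0 fell. The 1 measured myeloid marker spread from 4.43 to 9.56 over the inner arrays alone. The part of any of these cell types in the differences of the 7 genes was not tested.

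**Figure D4:**
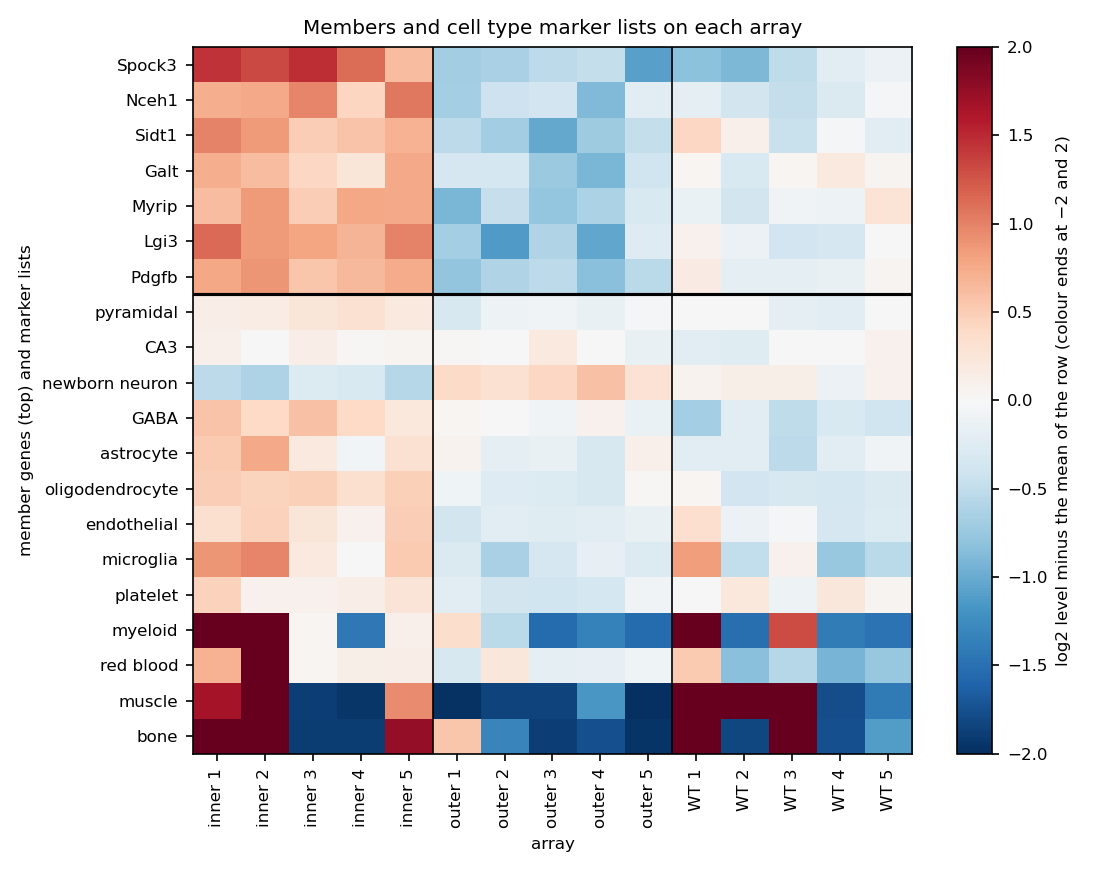
Normalized log2 level of the 7 genes (upper rows) and mean level of each marker list (lower rows) on every array (columns), as colour after the mean of the row was taken off, with colours ending at −2 and 2. Pyramidal, GABAergic, endothelial, platelet, oligodendrocyte and microglia lists lie higher on all inner than on all outer arrays. Newborn neuron markers lie lower on average, and muscle and bone lists split the inner and the WT arrays.

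Of the Rab27 effectors, motors and exocyst subunits listed with Myrip, 3 of 10 measured genes rose and 0 fell, with a median of 0.02. The Rab3 and Rab27 effector Rph3a rose by 0.88 ± 0.13 (SE), at an adjusted p of 0.00442 in limma. The synaptotagmin-like effector Sytl2 rose by 0.85 ± 0.11 (SE), at an adjusted p of 0.00332 in limma. Their differences in animals 3 and 4 were 1.19 and 1.09, and both calls were kept without any single animal. Rab27a itself rose by 0.38 ± 0.10 (SE), at an adjusted p of 0.0394, which was lost without animal 1, 2, 4 or 5. Its difference in animals 3 and 4 was 0.14, with an adjusted p of 0.555 in limma. Against WT, Rab27a stood at −0.34 in the inner layer and −0.72 in the outer layer. The motor Myo5a had a difference of 0.06 ± 0.08 (SE), and 0 of the 6 measured exocyst subunits were called.

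The shares called in the lists of Galt, Nceh1 and Sidt1 are set beside the 11.4% higher and 9.57% lower of all genes, and nothing is read from such small counts. Of the genes of galactose and nucleotide sugar metabolism, 1 of 6 rose and 0 fell, with a median of 0.01. It was Slc35a2, the Golgi transporter of UDP-galactose, which rose by 0.36 ± 0.07 (SE), at an adjusted p of 0.0105 in limma, kept without any single animal. Against WT, Slc35a2 stood at −0.09 in the inner layer and −0.45 in the outer layer. Ugp2, which makes UDP-glucose, had a difference of 0.03 ± 0.09 (SE). Of the sterol list, 1 of 10 rose and 1 fell, with a median of −0.02: the sterol exporter Abcg1 rose by 0.42 ± 0.09 (SE) and Scap, an escort of sterol regulatory factors, fell by 0.35. Abcg1 was detected on 5 inner, 2 outer and 0 WT arrays, so it passed the filter mainly through the inner layer, and its difference was 0.27 in animals 3 and 4. Its call was lost without animal 1, 2, 3 or 5 and that of Scap without animal 2, 4 or 5. Of the SID1 and double-stranded RNA list, 0 of 5 measured genes were called by limma, and the paralogue Sidt2 had a difference of 0.23 ± 0.08 (SE), at an adjusted p of 0.0818.

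**Figure D5:**
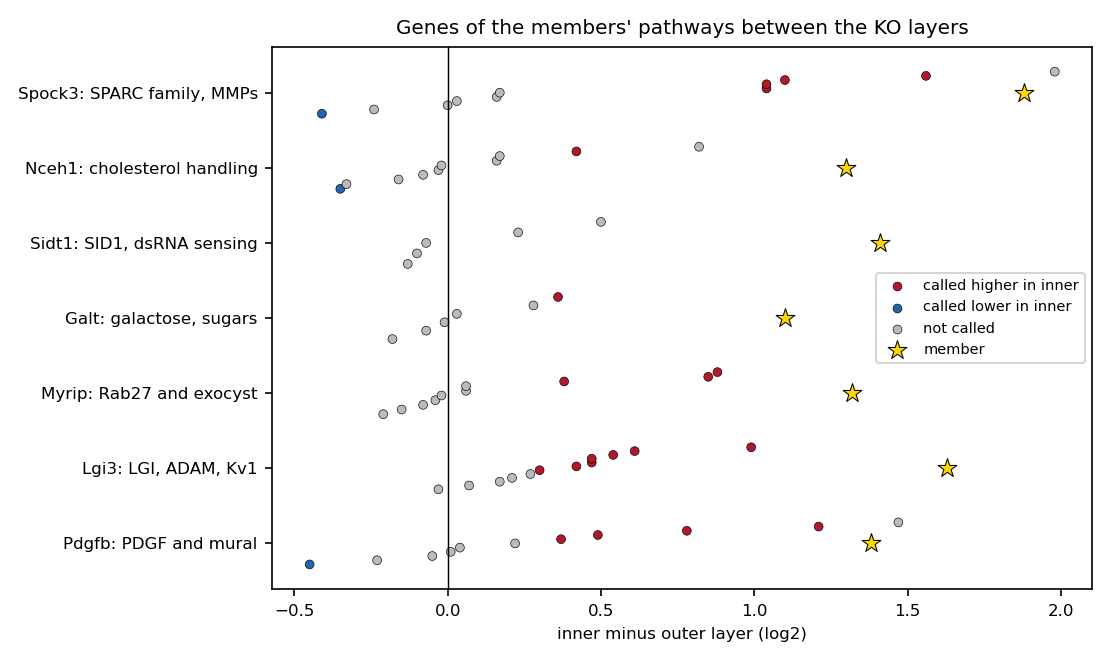
Inner minus outer log2 difference (horizontal axis) of the 65 measured genes of the 7 lists, with called genes in red (higher) or blue (lower), other genes in grey and the member of each list as a star. The LGI list has the most called genes, 7 of 12, and the sterol, galactose, SID1 and Rab27 lists centre near 0.

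Between KO animals and WT, 10 of the 65 listed genes were higher in KO and 5 lower, with a median of 0.01, against 11.3% and 11% of all genes. The adjusted p of the called genes in limma lay between 0.0189 and 0.0445. Among the 10 higher genes, Sparcl1 and Abcg1 were detected on 0 WT arrays and passed the filter through KO arrays alone. Nothing is read from their calls, and the count of 10 rests in part on the filter. Among relatives of Spock3, Spock1 was higher in KO by 0.69 ± 0.12 (SE), at an adjusted p of 0.0189 in limma, and by 0.59 in animal 5 alone. Sparcl1 was detected on 0 of 5 WT arrays and 9 of 10 KO arrays, so it passed the filter through the KO arrays alone. Its measured means were 1.16 apart, at an adjusted p of 0.0196 in limma, and 0.13 apart in animal 5. Set against the lowest detected signal of each WT array, its mean over the KO animals was at least 1.6-fold higher, or 0.68 in log2. This bound was not tested, and the 0.13 of animal 5 lay below it. Among sterol genes Npc2, a lysosomal cholesterol carrier, and Insig1, a brake on sterol synthesis, were higher by 1.22 and 1.18 in KO, with −0.44 and −0.26 in animal 5. Of this list 4 genes were called higher and 2 lower. The lower ones were Srebf2 and Sqle, at −0.35 and −0.33 in KO minus WT and at −0.26 each in animal 5. Of the galactose list, Pgm1, a phosphoglucomutase, was higher by 1.14, with −0.06 in animal 5, and Ugp2 was lower, with −0.37 and −0.30. From the Myrip list, Myo5a was higher by 0.61 and Exoc7 by 0.59, with 0.43 and −0.01 in animal 5. That list had 3 genes called higher and 1 lower, Rab27a, at −0.53 in KO minus WT and −0.09 in animal 5. Cspg4, a marker of pericytes and oligodendrocyte precursors, was the 1 gene called in the PDGF list, at −0.65 in KO minus WT and −0.03 in animal 5. No gene of the LGI list (0 of 12) or of the SID1 list (0 of 5) was called. Without KO animal 2, 3 or 4, 0 of the 65 genes were called in either direction.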

How the data were processed

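Per the labels' protocols, biotinylated amplified RNA of laser-microdissected CA3 tissue was read on Illumina bead arrays. The authors deposited log2 signals (in 2 copies equal to 7 decimals for 25697 entries with a probe) and, in a further table, scaled scores. Tested on the values, each deposited score is the log2 signal centred on its array's median and divided by its array's SD, with a shift added on 8 arrays. The submitters' processing notes name limma; its role and version, the background correction and the annotation build are not given in the sources used here.

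Of 26821 entries, 1124 carried no probe; 1114 at background served as negative controls and 10 bright ones (over 0.05 above the array median in log2) were set aside. Signals, taken off the log2 scale, went through the robust setting of limma's neqc with an offset of 16 (limma 3.58.1, R 4.3.3). The detection p-value, computed here, counts the negative controls as bright as a probe or brighter, as a share; the deposited tables hold none, as the design had assumed of raw files. Kept were the 12077 probes (47%) for which it was under 0.01 in 5 or more of 15 arrays. Genes were named from the platform annotation (23978 probes with 1 symbol, 0 with several, 1719 with none), with the brightest kept probe standing for each gene. Probe positions and probe sequences were not used here. The number of arrays limits the precision.

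lmFit and eBayes of limma were used, two-sided, with p-values adjusted over the kept probes by Benjamini-Hochberg and called under 0.05. The layers were fitted with the animal as block, since the series states that they share animals. Across genes, the deviations of an animal's inner and outer arrays correlated with r = 0.568, 0.243, 0.367, 0.383 and 0.777, and every array correlated best with its own number. KO animals were compared with WT by the mean of both layers. A mean carries its SD and a difference its SE. 

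The members and the gene lists were chosen with earlier results of these data known. Named were all 7 members; per list up to 4 genes of the largest difference among those called between the layers, and up to 2 called between KO and WT; and the 3 genes of highest Pearson r with each member. Further listed genes (Lgi1, Adam22, Adam23, Kcnab2, Spock2, Timp3, Pdgfrb, Pdgfa, Sidt2, Gadd45g, Gja1, and Ugp2 and Myo5a between the layers) were named after their values were seen. So were Abcg1, Srebf2, Sqle and Rab27a between KO and WT. Alternatives changed the normalization, the offset, the filter, the probe of a gene, the block, the array set and the animals; those of each layer against WT were chosen after seeing the data. The alternative without the muscle- or bone-high arrays kept KO animals 3 and 4 and WT mice 4 and 5. Outer arrays 2 and 5, low in those markers, were left out with their animals. The fits were tested on simulated data, with 200 of 12077 probes changed and no array shift put in. With a log2 change of 1, 88.5% were recovered between the layers and 88% for KO minus WT. With a change of 0.5, 36% and 23% were recovered, so many changes of that size would be missed.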

Additional observations from a re-analysis of the deposited data

How the results depend on the processing

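The inner minus outer difference of all 7 genes kept its sign under all 15 alternatives, with the lowest values for Galt (0.45 SD units with the authors' scores, 0.73 with median-centred signals), and inner minus WT kept its sign under all 17. The size of the inner minus outer difference and the order of the genes changed with the scaling. With quantile normalization alone Spock3 went from 1.88 to 1.37 and Lgi3 from 1.63 to 0.98. Outer minus WT turned for Spock3 (0.04 with median-centred signals) and Nceh1 (0.08 with the authors' scores, 0.06 with the array set as a term). Of the related genes, the 20 higher in the inner layer became 1 with median-centred signals, 13 with the authors' scores, 7 without the muscle- or bone-high arrays, 11 with no replicate block and 12 to 16 without 1 animal. The 3 lower ones became 7 with quantile normalization alone, 0 with median-centred signals, 5 with an offset of 50, 5 with the mean over probes, 0 without the muscle- or bone-high arrays, 1 in KO animals 1 to 4 alone and 1 to 2 without 1 animal. Of KO minus WT, the 2 called members became 1 without the filter, 1 without the muscle- or bone-high arrays, and 0 to 2 without 1 animal. The 10 higher related genes became 2 with the scores, 6 without the filter and 0 to 11 without 1 animal, and the 5 lower ones 0 with median-centred signals, 1 with the scores, 3 without the muscle- or bone-high arrays and 0 to 10 without 1 animal. With the array set as a term, or within the unshifted arrays, members, higher and lower genes came to 0, 0 and 0, where animal 5 stands alone and is assumed to vary like WT. Over all genes that term called 1 gene (316 at an unadjusted p under 0.05), and the unshifted arrays alone 0 (283). Without KO animal 2, 3 or 4 limma called 13 to 21 genes, and without animal 5 it called 3055, against 1879. Of those 1879, 50.8% were higher in KO, which became 93.7% with median-centred signals and 67.7% with the scores; median-centred signals moved the median of all genes to 0.03, against −0.08. Between the layers the share higher in the inner layer was 54.3%, with 40.5% by the scores, 68.9% without the muscle- or bone-high arrays and 66.9% with no block. The cause of these changes was not tested.

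Same-numbered KO and WT mice share only a number: r of their deviations ran from −0.285 to 0.365, and 1 of 5 KO animals correlated best with its own number. With that replicate block 0 members, 0 higher and 0 lower related genes were called, with adjusted p of 0.0615 for Spock3 and 0.0695 for Nceh1, and 1 gene of all 8442 (3077 at an unadjusted p under 0.05).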
